A study of Mus musculus with 18 samples.

Results

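Splenic B cells from mice lacking Beclin 2 were compared with splenic B cells from wild-type mice, and all 298 genes that carry a p-value in the authors' deposited table of this comparison are described here, out of 2202 genes listed in any of the 5 tables of the series. The knockout and wild-type groups held 2 samples each, of primary B cells taken from the spleen of C57BL/6 mice aged 8 weeks, with no stimulation and with RNA extracted directly, without culture. The labels call the genotype Beclin 2 KO and give no further description of the allele. How the B cells were isolated, and whether both samples of a genotype are separate animals, are not given in the sources used here. The p-values thus measure the spread between these samples alone, and that spread may be technical. Polyadenylated RNA was sequenced on an Illumina HiSeq. Beside the B cells, splenic T cells of both genotypes at the same age and lymph nodes of both genotypes, for which no age was given, serve below for side by side values.

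Beclin 2 is a mammalian relative of the autophagy protein Beclin 1, and is known for roles in autophagy and in the lysosomal degradation of some G protein-coupled receptors. Most B cells of an unimmunised spleen are resting follicular or marginal zone cells, and a small number respond to antigen in germinal centres, where antibody genes are mutated and switch their class. Each B cell makes a heavy chain and a light chain from variable segments joined during its development, so the variable segment transcripts of a B cell population are those of the clones it holds.

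The targeted gene could not be checked. Neither Becn2 nor its relative Becn1 was listed in any of the 5 tables, which hold called genes only, so no level of either transcript can be given in any sample. The identity of the cells could not be checked either, since a marker that was not called has no level here. Of 21 genes on a B cell identity list, Fcer2a, the low-affinity IgE receptor CD23 of mature follicular B cells, was the single called gene, and Cd79a and Ms4a1 were not called. None of 30 T cell genes was called by the authors' DESeq test, and a count at an unadjusted p under 0.05 cannot be had from a table of called genes. Each table gives 1 normalised read count per group, the authors' mean over 2 libraries. The whole reads behind these means could be recovered for both groups in 289 of the 298 genes, which gives a value per library. The library totals are unknown, and depth is known as size factors of 0.918 and 0.912 for the knockout libraries and 1.19 and 1.003 for the wild-type libraries. The recovered libraries carry no replicate number. In all 289 genes both knockout libraries lay on the same side of both wild-type libraries, which calling itself selects for. Among genes with a group mean over 50 the knockout libraries differed by a median ratio of 1.21, and 9 of 229 genes differed more than 2-fold between them. The wild-type libraries differed by a median ratio of 1.14, and no gene of 233 differed more than 2-fold.

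Of about 23957 genes tested, 1.24% were called at an adjusted p under 0.05, and these are the 298 genes. Knockout B cells held more mRNA of 118 of them, or 0.493% of the genes tested, with a median log2 ratio of 1.88, and less of 180, or 0.751%, with a median of -1.46. The count of lower genes was 118 without antigen receptor segments and predicted genes, and that of higher genes 92. The log2 ratio throughout is knockout over wild type, from the deposited means. At the edge of the call stood Bmpr1a, a bone morphogenetic protein receptor, with an adjusted p of 0.0496 in the authors' deposited table, and no gene past the threshold is listed there. At the other end stood Pydc4, with 90.5 and 64.7 normalised reads in knockout and 2130 and 2033 in wild type, and an adjusted p of 1.03e-73 in the authors' deposited table. Protein-coding genes made up 212 of the 298, with 95 higher and 117 lower. Of 23 long noncoding transcripts 1 was higher and 22 were lower, these being the called genes annotated as lincRNA, antisense or processed transcript.

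**Figure D1:**
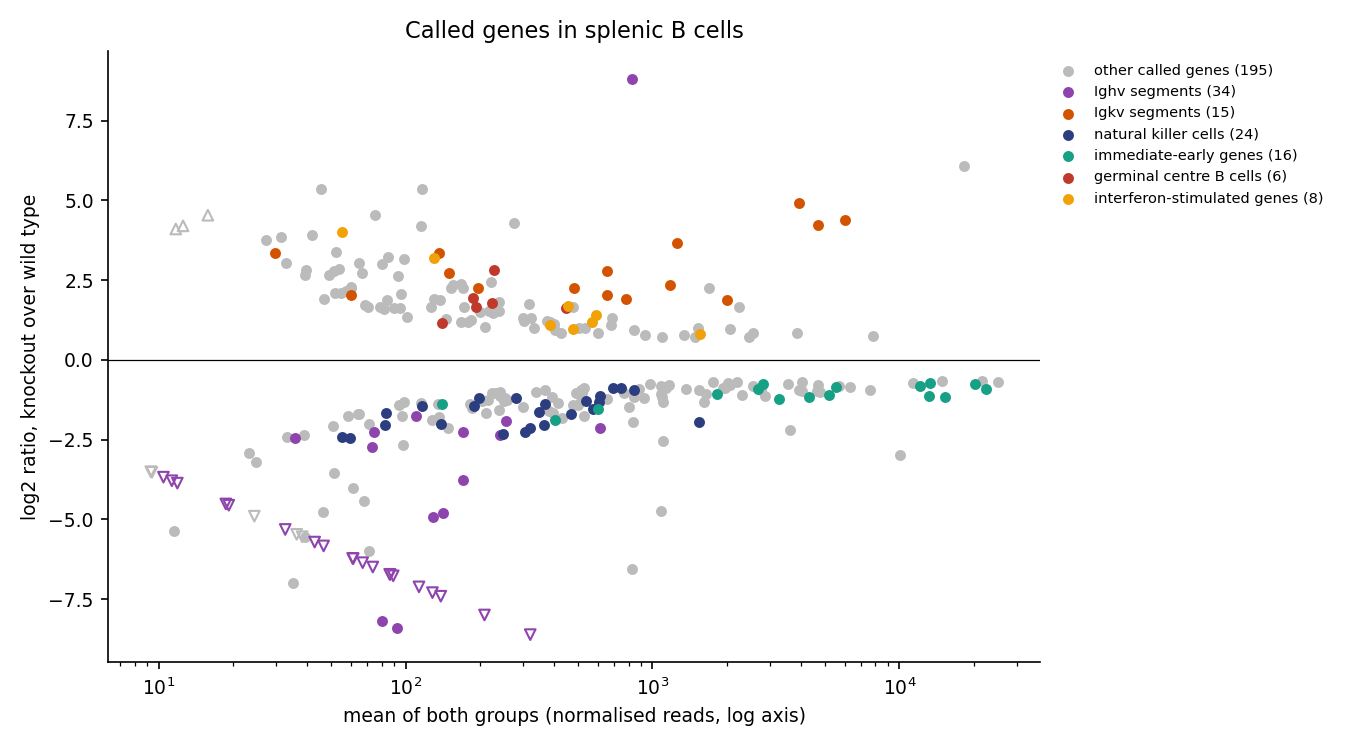
Each point is 1 of the 298 called genes, with the mean of both group means in normalised reads on a log axis and the log2 ratio of knockout over wild type. Colours mark gene groups, and open triangles are genes with 0 reads in 1 group, drawn at the lower bound of their ratio. Called natural killer and immediate-early genes lie below 0, the latter mostly at high levels, and all 15 Igkv segments lie above 0.

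Germinal centre transcripts were higher in knockout B cells. Of 27 genes on the list 6 were called, all of them higher, with a median log2 ratio of 1.72 against 1.88 over all genes called higher. The 6 are 22.2% of the list, against 0.493% of all genes tested that were called higher. The lists were chosen with earlier results of these data known, so such shares are no test. Summed over the 6, the knockout libraries held 2303 and 2113 normalised reads and the wild-type libraries 539 and 725. This sum, like those below, takes called genes only, so calling itself selects for the separation of the genotypes. Gcsam, a germinal centre adaptor that restrains cell motility, had 389 and 408 normalised reads in knockout and 41.9 and 70.8 in wild type, the largest ratio of the 6. Its log2 ratio was 2.82, with an adjusted p of 7.8e-17 in the authors' deposited table of DESeq results. S1pr2, the sphingosine phosphate receptor that holds B cells inside the germinal centre, had 379 and 314 against 93.0 and 108, a log2 ratio of 1.79. In both genes the knockout libraries stood more than 2-fold above both wild-type libraries.

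The other called genes of the list were the GTPase gene Nuggc (log2 ratio 1.95), Basp1 (1.64), the transcription factor Mybl1 (1.64) and Efnb1 (1.17), which encodes an ephrin. Basp1 was the most abundant of them in both genotypes, with 705 and 646 normalised reads in knockout and 185 and 249 in wild type. Efnb1 lay nearest the threshold, with an adjusted p of 0.0388 in the authors' deposited table. The list's other 21 genes, among them Bcl6, Fas, Bach2 and the proliferation marker Mki67, were not called, and none of 36 cell cycle genes was called by the authors' DESeq test.

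Constant regions of switched antibodies were the other large rises in antibody genes. Of 12 constant region genes Ighg3 and Ighe were called, both higher. They are 16.7% of the list, against 0.493% of all genes tested that were called higher. Ighg3, the constant region of IgG3, stood in the authors' deposited table at 36101 normalised reads in knockout, as a group mean, and 535 in wild type, where the wild-type libraries held 559 and 512 and the knockout libraries were not resolved. Ighg3 was called higher in splenic T cells too, with means of 21625 in knockout and 1050 in wild type, a log2 ratio of 4.36. Of the 12 genes 6 were called higher in T cells and 3 in lymph node. Over all genes tested, 1.67% were called higher in T cells and 0.181% in lymph node. The part of antibody-making cells in the T cell values was not tested. Ighe, the constant region of IgE, had 292 and 163 normalised reads in knockout and 9.22 and 1.99 in wild type. Its log2 ratio of 5.34 was 6.83 without the wild-type library with more reads, so the size rests on few wild-type reads. Tmem121, a membrane protein gene that lies beside the heavy chain constant regions on chromosome 12, rose as well, with 95.9 and 83.3 against 15.1 and 10.97. The single plasma cell gene called of 23 on that list, the transcription factor Irf4, was lower, with 2845 and 2390 normalised reads in knockout and 4758 and 4142 in wild type.

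**Figure D2:**
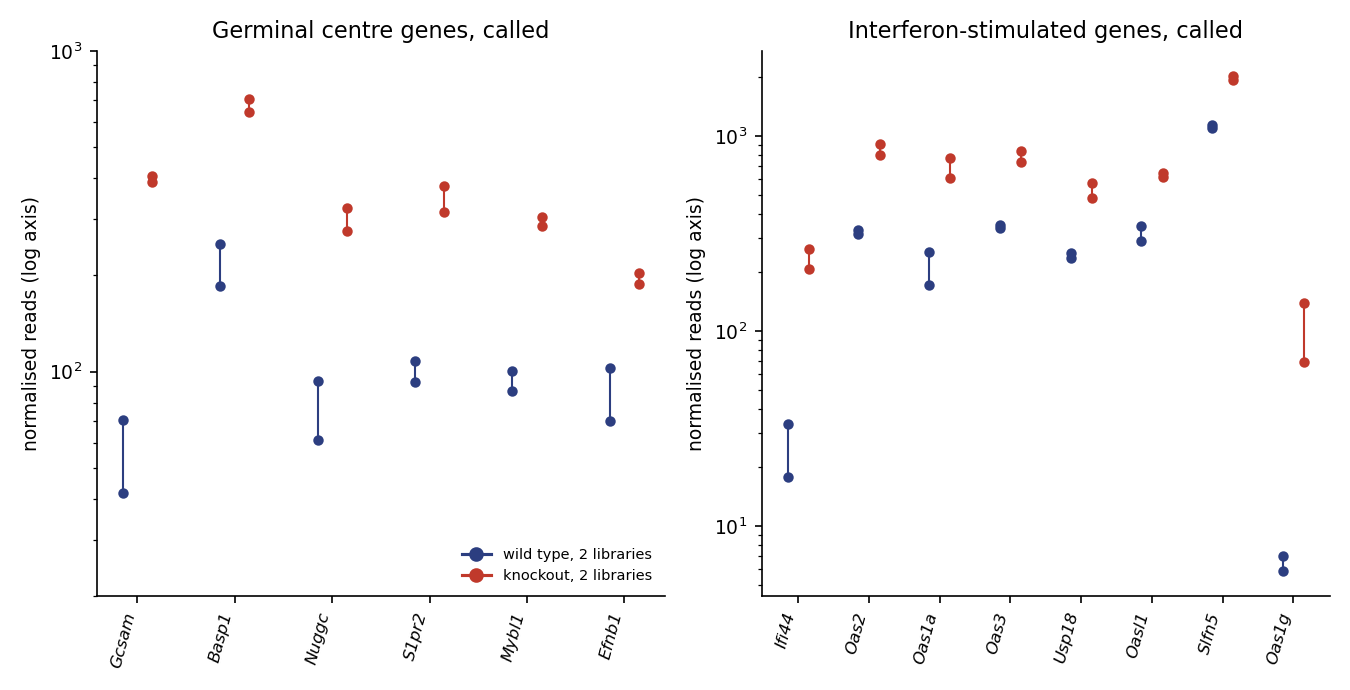
Normalised reads per library on a log axis for the 6 called germinal centre genes and the 8 called interferon-stimulated genes, with both libraries of a genotype joined by a line. Both knockout libraries lie above both wild-type libraries in each of the 14 genes. Libraries of the genotypes were apart in all 289 called genes resolved, which calling selects for.

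The called transcripts of the interferon-stimulated list, led by the oligoadenylate synthetases, were higher. These enzymes sense double-stranded RNA and make a short oligoadenylate that activates the nuclease RNase L. Of 53 interferon-stimulated genes 8 were called, all higher, with a median log2 ratio of 1.30, below the 1.88 over all genes called higher. The 8 are 15.1% of the list, against 0.493% of all genes tested that were called higher. Oas1a, Oas1g, Oas2 and Oas3 lie together within 177 kb of chromosome 5, and Oasl1 elsewhere on the same chromosome. The promoters of 6 of the 8 genes were in the RefSeq table, and 4 of these held the core of the interferon-stimulated response element, GAAA and GAAA with any 2 bases between them, on either strand within 250 bases before and 50 after the start site. This is 66.7%, against 3.99% of 27025 genes with a promoter in the table, and 11.6% of 69 called higher genes with one, which include the 4. The list is of interferon-stimulated genes, so a high share was likely beforehand, and its genes that were not called were not counted. The 200 bases before the start site of these 4 are printed from RefSeq, build GRCm38.p6, on the strand of the gene, with the matches in capitals, because they show where the shared letters fall. Oas1a lies at chr5:120907526-120907725 on the minus strand, Oas1g at chr5:120887614-120887813 on the minus strand, Oas3 at chr5:120777660-120777859 on the minus strand and Slfn5 at chr11:82951902-82952101 on the plus strand.
Oas1a: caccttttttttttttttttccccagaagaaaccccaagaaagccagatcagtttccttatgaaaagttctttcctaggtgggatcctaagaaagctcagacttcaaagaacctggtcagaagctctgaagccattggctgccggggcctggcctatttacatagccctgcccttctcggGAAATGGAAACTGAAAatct
Oas1g: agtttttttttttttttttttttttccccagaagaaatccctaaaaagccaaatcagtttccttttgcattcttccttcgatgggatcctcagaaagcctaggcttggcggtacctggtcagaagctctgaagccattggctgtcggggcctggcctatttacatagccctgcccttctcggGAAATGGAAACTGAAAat
Oas3: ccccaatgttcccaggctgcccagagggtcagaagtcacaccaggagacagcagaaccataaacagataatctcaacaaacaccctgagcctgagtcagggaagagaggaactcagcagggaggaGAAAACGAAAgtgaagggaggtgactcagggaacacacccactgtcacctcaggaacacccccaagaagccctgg
Slfn5: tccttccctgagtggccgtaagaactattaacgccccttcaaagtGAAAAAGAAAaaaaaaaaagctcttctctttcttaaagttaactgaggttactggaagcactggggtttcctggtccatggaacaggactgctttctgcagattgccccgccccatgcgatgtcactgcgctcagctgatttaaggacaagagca

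Oas1a and Oas1g share a run of 56 identical bases that ends just before their start sites and holds 2 overlapping matches, of which the first begins 20 bases before the start in Oas1a and 18 in Oas1g. The match begins 75 bases before the start in Oas3, and 155 in Slfn5, where it opens a run of adenines. These matches describe the sequence only.

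Among the synthetases of the chromosome 5 cluster, Oas1g stood apart in both level and ratio. Oas2 had 912 and 796 normalised reads in knockout and 315 and 331 in wild type, a log2 ratio of 1.40 with an adjusted p of 4.49e-07 in the authors' deposited table. Oas3 had 844 and 735 against 339 and 351, a log2 ratio of 1.19, and Oas1a 776 and 612 against 173 and 255, a ratio of 1.70. Oas1g was a rare transcript, with 139 and 69.1 normalised reads in knockout and 5.87 and 6.98 in wild type, and its knockout libraries differed 2-fold. Its log2 ratio of 4.02 was 3.43 without the knockout library with more reads. Near-identical copies such as Oas1a and Oas1g may share reads, so the division between them is uncertain.

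Outside the synthetases, Ifi44 had 263 and 207 normalised reads in knockout and 33.5 and 17.95 in wild type, a log2 ratio of 3.19. Usp18, the protease that removes ISG15 and dampens interferon receptor signalling, had 480 and 575 against 251 and 238. Slfn5, a Schlafen family gene, was the most abundant of the 8 and the least changed, with 1948 and 2045 against 1105 and 1144 and an adjusted p of 0.00477 in the authors' deposited table. Many widely used interferon markers on the list, among them Ifit1, Isg15, Mx1, Irf7 and Rsad2, were not called. The single direction is that of the list's called members only. Epsti1, which is not on the list, was called lower in B cells, splenic T cells and lymph node. Its log2 ratios there were -0.70, -1.15 and -1.04.

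Genes of the PYHIN family, interferon-inducible sensors of DNA encoded side by side on chromosome 1, went in both directions. A run of 7 called genes spanned 474 kb, where 16 genes are annotated, with 2 higher and 5 lower. Ifi204 was higher, with 377 and 372 normalised reads in knockout and 76.2 and 60.8 in wild type, and so was Mnda, with 113 and 125 against 48.6 and 26.9. Pydc4 was lower in both knockout libraries by the values given above, a log2 ratio of -4.75. Gm4955, a predicted gene that GENCODE calls Ifi206, was lower with a log2 ratio of -1.96, Pydc3 with -1.46, Pyhin1 with -0.95 and Mndal with -0.80. Mndal was the most abundant of the run, with 3103 and 3742 normalised reads in knockout and 6079 and 5839 in wild type. GENCODE gives the IDs listed as Mnda, Pydc3, Pydc4 and Pyhin1 the newer symbols Ifi211, Ifi208, Ifi213 and Ifi209. These paralogs resemble each other, so the division of reads among them is uncertain.

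Natural killer cell transcripts were lower in knockout B cells. Of 57 genes on the list 24 were called, all of them lower, with a median log2 ratio of -1.60 against -1.46 over all genes called lower. The 24 are 42.1% of the list, against 0.751% of all genes tested that were called lower. Summed over the 24, the knockout libraries held 5441 and 4986 normalised reads and the wild-type libraries 14562 and 14121. Calling these genes lower selects for that separation. Natural killer cells are lymphocytes distinct from B cells. In bulk samples fewer cells of a type and less RNA per cell cannot be told apart, and the part of natural killer cells among the prepared cells in these values was not tested. None of 30 T cell genes, 21 dendritic cell genes or 23 erythroid genes was called, and of 42 monocyte and macrophage genes the lysozymes Lyz1 and Lyz2 alone were called, in opposite directions.

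Receptor genes and pseudogenes of the natural killer gene complex made up most of the called genes of that list. A run of 15 called genes, all lower, spanned 1608 kb of chromosome 6, from Klrb1c to Klra1, where 82 genes are annotated. It included Cd69 and 14 entries of the lectin-like receptor families, of which Klra13-ps and Klra14-ps are named as pseudogenes. Klra8, which encodes the activating receptor Ly49H of C57BL/6 mice, had 95.9 and 113 normalised reads in knockout and 535 and 469 in wild type, a log2 ratio of -2.27. Klrb1c, the gene for the NK1.1 antigen, had 305 and 280 against 812 and 903, a log2 ratio of -1.55. Klrd1, the CD94 chain shared by the NKG2 receptors, had 336 and 355 against 960 and 781, and Klrk1, the activating receptor NKG2D, 572 and 475 against 987 and 942. In these 4 genes the fall ran from 4.81-fold in Klra8 to 1.84-fold in Klrk1. Reads of the Klra genes can be divided among near-identical copies.

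Natural killer genes outside the complex fell too. Ncr1, the activating receptor NKp46 of natural killer cells, had 262 and 180 normalised reads in knockout and 715 and 713 in wild type, a log2 ratio of -1.69 with an adjusted p of 2.87e-09 in the authors' deposited table. Gzma, the granule protease granzyme A, was the most abundant of the list, with 700 and 564 against 2292 and 2615. Prf1, the pore-forming protein perforin, had 348 and 419 against 823 and 871, and Eomes, the transcription factor of natural killer cell maturation, 289 and 340 against 770 and 751. The chemokine gene Xcl1 had a log2 ratio of -1.45, the kinase-like gene Styk1 of -2.42 and the integrin gene Itga2, which encodes the CD49b antigen, of -1.44.

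Genes of effector lymphocytes that the natural killer list does not hold gave a mixed picture. Of 32 effector and memory T cell genes 8 were called, 1 higher and 7 lower, of which Gzma, Eomes and Il18rap are on both lists. The 8 are 25.0% of the list, against 1.24% of all genes tested. Of the 7 lower genes 3 were left at an adjusted p under 0.01 and 4 at a 2-fold minimum. Ifng, the gene of interferon gamma, had 198 and 248 normalised reads in knockout and 452 and 446 in wild type. Gzmk, which lies within 132 kb of Gzma on chromosome 13, was the 1 gene that rose, with 80.6 and 87.7 against 22.6 and 17.0. Its adjusted p was 0.00965 in the authors' deposited table, and that of Gzma 7.59e-18. Of the chemokine genes Ccl3 and Ccl4, neighbours on chromosome 11, Ccl3 had 566 and 435 against 1005 and 1064 and Ccl4 286 and 217 against 499 and 467. The chemokine receptor gene Cxcr6 had a log2 ratio of -0.99 and an adjusted p of 0.0423 in the authors' deposited table.

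**Figure D3:**
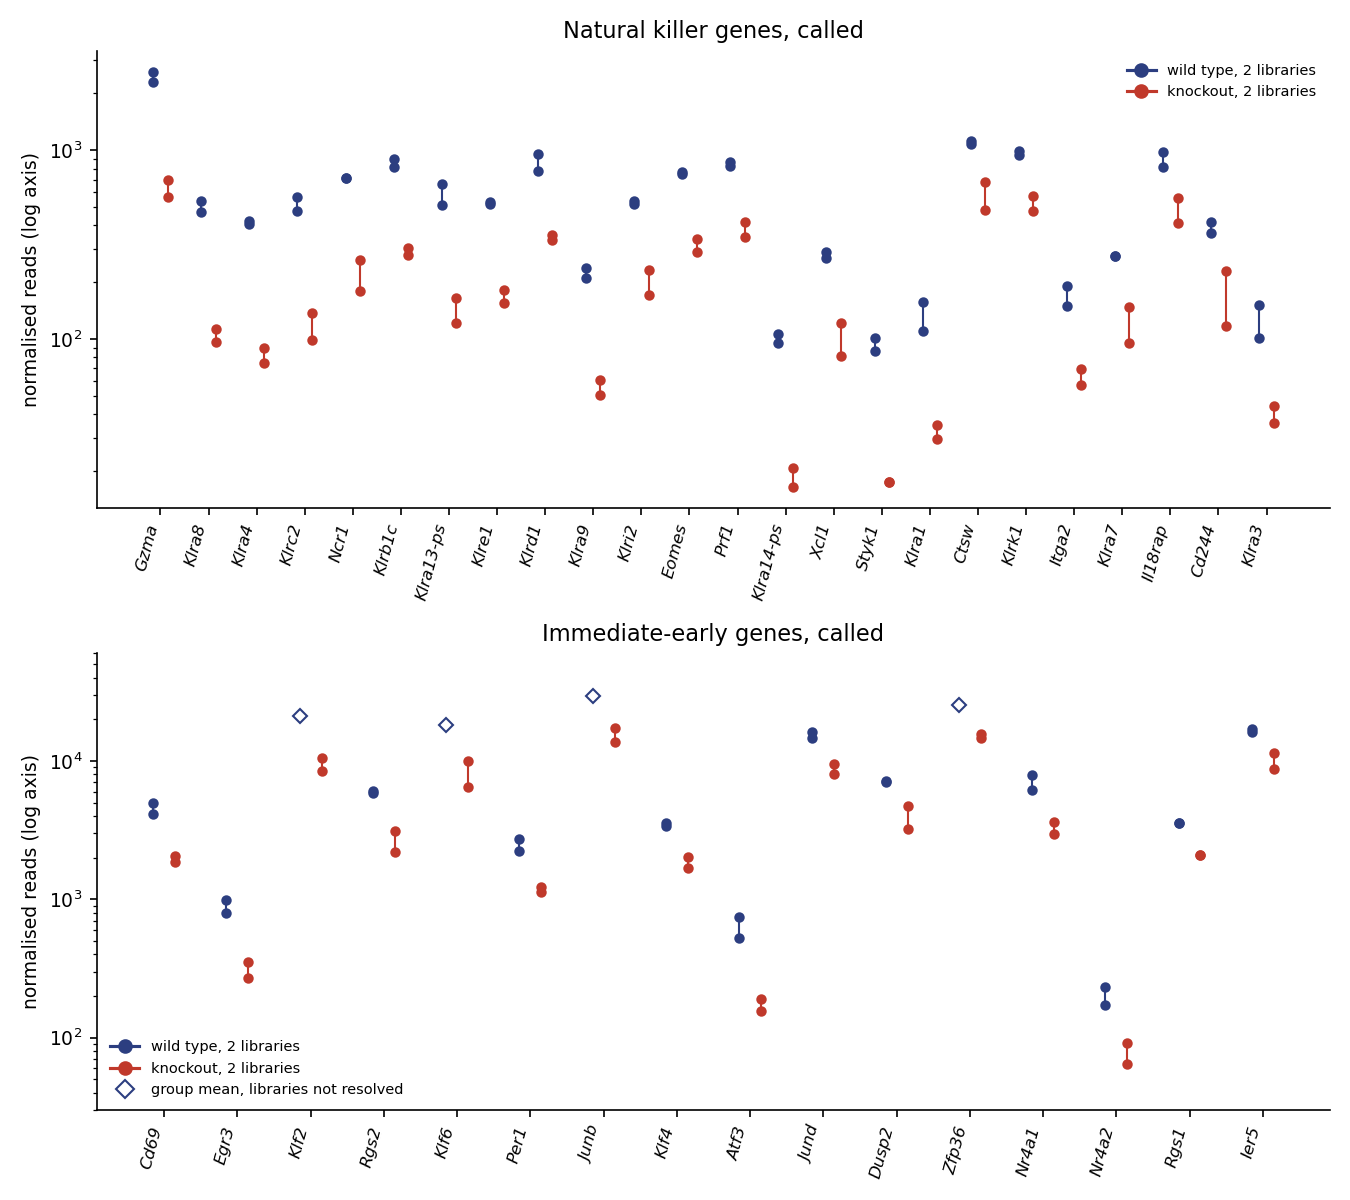
Normalised reads per library on a log axis for the 24 called natural killer genes and the 16 called immediate-early genes, in order of adjusted p. Both knockout libraries lie below both wild-type libraries, or below the wild-type mean in the 4 genes whose wild-type libraries were not resolved (open diamonds). Calling selects for this separation.

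Immediate-early genes, which switch on within minutes of a stimulus without new protein synthesis, were lower in knockout B cells and were among the most abundant of the called genes. Of 44 genes on the list 16 were called, all lower, with a median log2 ratio of -1.09, a smaller change than the -1.46 over all genes called lower. The 16 are 36.4% of the list, against 0.751% of all genes tested that were called lower. Of the 16, 9 differed at least 2-fold. Over the 12 genes with reads resolved in all libraries, the knockout libraries summed to 33484 and 39156 normalised reads and the wild-type libraries to 69904 and 65717. Here too calling selects for the separation. Cd69, an early activation antigen that retains lymphocytes in tissue, had 1854 and 2057 normalised reads in knockout and 4979 and 4162 in wild type, a log2 ratio of -1.22. Egr3, a zinc finger factor induced by the antigen receptor, had 268 and 351 against 985 and 802. Atf3, a stress-induced factor, had the largest fall of the 16, with 190 and 156 against 740 and 524, a log2 ratio of -1.87.

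The list's members fell across several families. Of the Krüppel-like factors, Klf2, which keeps lymphocytes quiescent, stood at means of 9476 and 20998 normalised reads in knockout and wild type in the authors' deposited table, with knockout libraries at 8432 and 10520. Klf6 stood at 8273 and 18034 in that authors' deposited table, and Klf4 had 2008 and 1672 in the knockout libraries against 3574 and 3402. Of the AP-1 subunits, Junb was at a log2 ratio of -0.92 and Jund at -0.82, while Fos, Fosb and Jun were not called. Among orphan nuclear receptors, Nr4a1, a marker of antigen receptor signalling, had 3603 and 2972 against 7947 and 6126, and Nr4a2 92 and 65 against 233 and 174. Rgs2 and Rgs1, neighbours on chromosome 1 that encode regulators of G protein signalling, had log2 ratios of -1.16 and -0.76.

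Of 22 genes on a list of ERK pathway targets and feedback genes 4 were called, all lower. Egr3, counted with the immediate-early genes as well, is among them. The 4 are 18.2% of the list, against 0.751% of all genes tested that were called lower. The phosphatase genes Dusp4 and Dusp6, which switch off MAP kinases, had 246 and 218 against 610 and 583 and 791 and 774 against 1332 and 1440 normalised reads, and the ERK inhibitor gene Spry2 had a log2 ratio of -1.21. Of 33 NF-kB targets and feedback genes 4 were called, or 12.1%, all lower, and 2 of these were at least 2-fold apart. Ccl3 and Ccl4, counted with the effector genes as well, are among the 4. Tnfaip3, the ubiquitin-editing inhibitor A20, had 2621 and 3658 against 6587 and 5713. The kinase gene Plk2 had a log2 ratio of -1.19. Of 19 genes of the MEKK3, TAK1 and MAP kinase pathway and of 38 autophagy genes, none was called by the authors' DESeq test.

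Promoters were in the RefSeq table for 13 of the 16 immediate-early genes. The E-box letters CACGTG were in 4 of the 13, those of Klf4, Klf6, Dusp2 and Per1, or 30.8%, against 8.09% of all 27025 genes and 11.7% of 94 genes called lower. The letters TGACGTCA of the cyclic AMP response element were in none of the 13, against 2.03% of all genes, and the CArG box was in that of Zfp36 alone, against 1.81%. Per1 and Klf6 are shown for the place of the E-box, with the match in capitals, from RefSeq build GRCm38.p6 and on the plus strand, as the 200 bases before the start site, at chr11:69098749-69098948 and chr13:5861289-5861488.
Per1: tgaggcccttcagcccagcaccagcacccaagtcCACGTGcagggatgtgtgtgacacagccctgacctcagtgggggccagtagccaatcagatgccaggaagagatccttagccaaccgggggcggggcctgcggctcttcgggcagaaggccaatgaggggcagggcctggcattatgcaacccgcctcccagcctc
Klf6: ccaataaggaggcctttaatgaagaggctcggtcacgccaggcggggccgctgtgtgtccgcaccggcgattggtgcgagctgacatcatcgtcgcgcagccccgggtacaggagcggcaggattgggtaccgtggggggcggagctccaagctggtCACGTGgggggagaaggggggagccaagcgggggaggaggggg

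The E-box begins 166 bases before the start site in Per1 and 43 in Klf6. Per1 encodes a repressor of the circadian clock, and had 1220 and 1129 normalised reads in knockout and 2725 and 2232 in wild type. No list of clock genes was counted, and the next 3 lower genes are named after their values were seen. Ciart, a clock repressor gene, had 240 and 282 against 724 and 658, Ccrn4l, which encodes the deadenylase nocturnin, 3166 and 3168 against 6757 and 5942, and Cirbp, a cold-inducible RNA-binding protein gene, 1457 and 1579 against 2666 and 2522.

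The called heavy chain variable segments were almost all lower and the called kappa segments all higher. Of 34 called Ighv segments 33 were lower and 1 higher, and all 15 called Igkv segments were higher. The called Ighv genes are part of a run of 39 called genes on chromosome 12. Of all 55450 genes annotated in the genome, many of which could not be tested, 0.53% were called. GENCODE lists 185 heavy chain variable segments there, and 35 were called, spread from place 23 to place 184 in chromosome order. The 35 include Gm16710, named Ighv1-74 in that annotation. Of these 35, 27 belong to family 1, which has 93 annotated segments, and 2 to family 14. None of 16 annotated segments of family 8 was called. Segments resemble each other closely, so reads may be divided among copies or be lost to the counting.

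In 20 of the Ighv segments both knockout libraries had 0 reads, with wild-type means from 20.9 to 640 normalised reads. The falls were at least 12.8-fold to at least 390.2-fold against a floor of 3 reads over the group, which covers counting error only. Ighv1-64 had 375 and 460 normalised reads in wild type and Ighv1-22 282 and 273, with 0 in both knockout libraries. The 13 other lower segments kept reads in knockout, and in 11 of the 13 the knockout libraries differed more than 2-fold, or had reads in 1 library alone. Ighv1-82 had 130 and 29.6 against 375 and 435, Ighv10-3 95.9 and 21.9 against 252 and 312, and Ighv1-55 165 and 50.4 against 346 and 456. In 10 of the 13 the same knockout library was the higher. Ighv1-26, the most abundant of the lower segments, was close between libraries, with 197 and 261 against 1093 and 912.

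The segment that rose, listed as Ighv1-14 and named Ighv1-16 in GENCODE for the same ID, had 2427 and 885 normalised reads in knockout and 3.35 and 3.99 in wild type. Its log2 ratio of 8.82 was the largest finite rise of the table, and was 7.91 without the knockout library with more reads. Summed over the 33 lower segments the knockout libraries held 801 and 447 normalised reads and the wild-type libraries 7006 and 7027. Over the 15 kappa segments the sums were 50068 and 31251 in knockout and 3825 and 3744 in wild type. Both sums take called segments of a single direction, so calling selects for their separation.

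Among kappa segments, Igkv3-4 and Igkv5-39 were the most abundant and the least even. Igkv3-4 had 15889 and 7055 normalised reads in knockout and 668 and 436 in wild type, and Igkv5-39 12229 and 5541 against 454 and 500. Their log2 ratios of 4.38 and 4.22 were 3.68 and 3.54 without the knockout library with more reads, and their adjusted p-values were 0.0451 and 0.0425 in the authors' deposited table. Igkv13-84 was close between libraries, with 2179 and 2503 against 192 and 178. Igkv3-5, with 8582 and 6658 against 241 and 260, had the largest ratio, 4.92. Called kappa segments lay from place 3 to place 158 of 160 annotated on chromosome 6. The 15 called of these 160 stand beside 0.53% of all annotated genes that were called. Of the lambda segments, Iglv2 was higher, with 3758 and 3024 against 1035 and 1134.

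**Figure D4:**
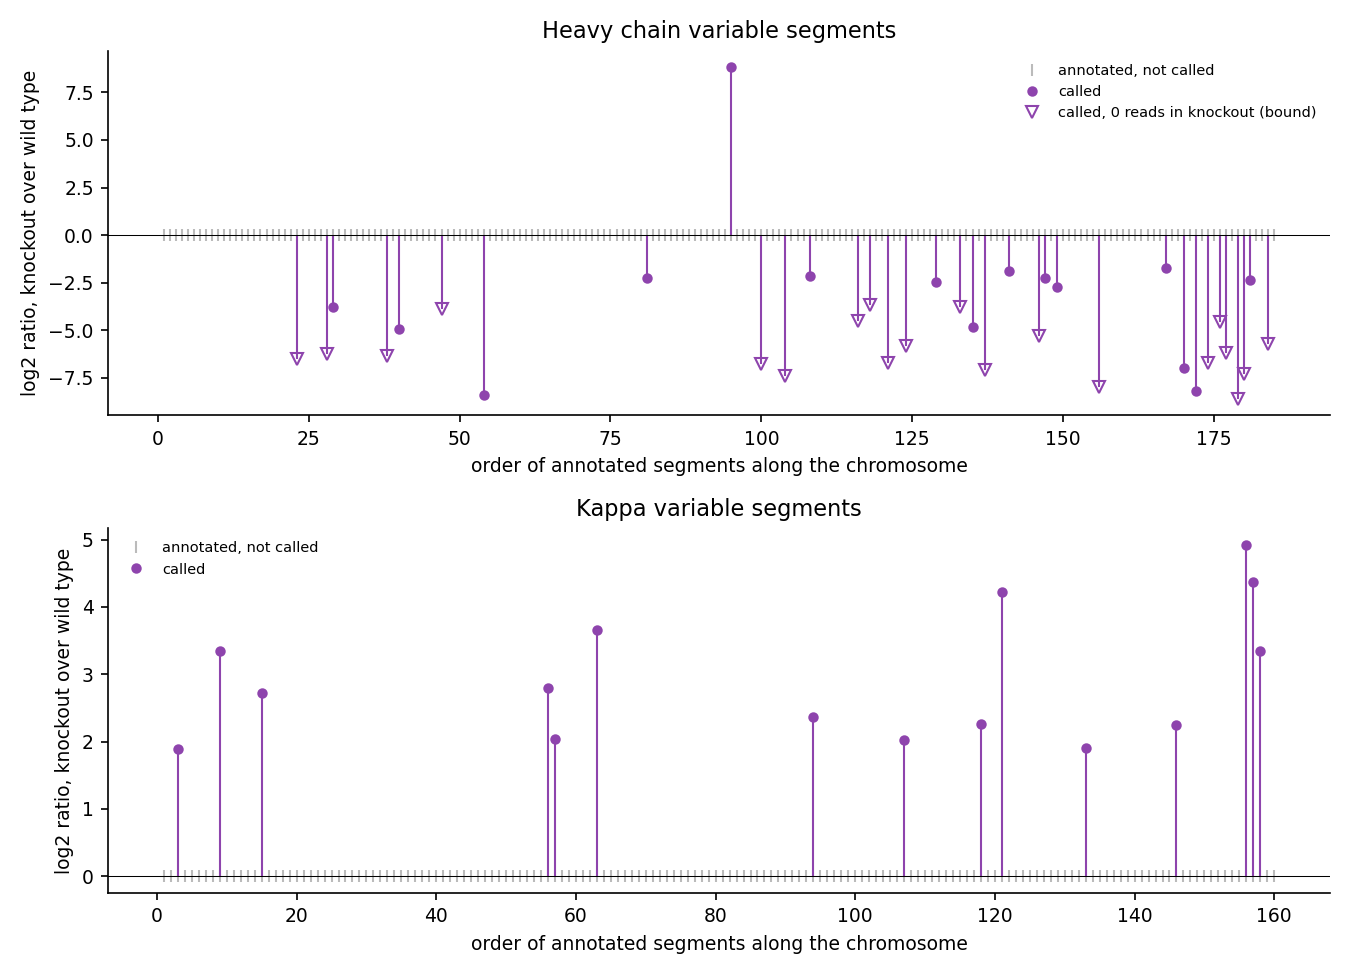
The log2 ratio of called variable segments against their order among annotated segments along chromosome 12 (heavy chain, 185 segments) and chromosome 6 (kappa, 160 segments). Grey ticks are annotated segments that were not called and open triangles are segments with 0 reads in knockout, drawn at the bound. Lower heavy chain segments are spread along the locus, with Ighv1-14 the exception above 0, and all called kappa segments lie above 0.

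Called genes often lay near each other in the genome, with genes that were not called between many of them. Of the 294 with a GENCODE position, 140, or 47.6%, had another called gene within 500 kb, in 32 runs, of which 25 went in a single direction. No such share was computed for all genes tested. The antigen receptor loci, the natural killer complex, the PYHIN cluster and the synthetases account for the largest runs. Serinc3, 0610039K10Rik and Pkig lie within 102.9 kb of chromosome 2 and all fell. Serinc3, which encodes a multipass membrane protein, had 2126 and 2412 normalised reads in knockout and a wild-type mean of 17872 in the authors' deposited table. Pkig, an inhibitor of protein kinase A, had 326 and 319 against 1808 and 1975, a log2 ratio of -2.55. Adamdec1 and Adam28, metalloprotease genes within 92.46 kb of chromosome 14, had 0 reads in both knockout libraries and 1 read in 1 of them. Adamdec1 had 82.1 and 62.8 normalised reads in wild type, and Adam28 20.1 and 24.9. Both were named after their values were seen.

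The lysozyme genes lie within 15.54 kb of chromosome 10 and moved apart. Lyz2, the lysozyme of myeloid cells, had 31.6 and 3.29 normalised reads in knockout and 1776 and 1488 in wild type, a log2 ratio of -6.55 that was -8.95 without the knockout library with more reads. Lyz1 had 73.0 and 84.4 in knockout and 3.35 and 6.98 in wild type, a log2 ratio of 3.93 that was 4.55 without the wild-type library with more reads. The pair are near-identical copies, so the level of each is uncertain, and Csf1r, Cd68 and Adgre1 of the same marker list were not called.

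Becn2 lies at chr1:175920329-175922225 in GRCm38. Of 476 genes annotated within 10 Mb of it, 10 were called, or 2.10%, with 2 higher and 8 lower, against 0.530% of the 55450 genes annotated in the genome. Annotated genes include many that could not be tested, so the 2 shares are not those of genes tested. The nearest were Mndal and Mnda, 1.98 and 2.01 Mb away, and 7 of the 10 are the PYHIN run. The other 3 were Cd244, a SLAM family receptor gene 4.31 Mb away that is also on the natural killer list, with 228 and 117 normalised reads in knockout and 416 and 364 in wild type, and the predicted genes Gm10521 and Gm17275, both lower.

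Several rises came from genes of no list or of a list with few calls. Chst1, a carbohydrate sulfotransferase gene, had 654 and 389 normalised reads in knockout and 35.2 and 17.95 in wild type, a log2 ratio of 4.29. Xkr6, of the XK family of membrane proteins, had 162 and 277 against 14.2 and 9.97, and its neighbour Mtmr9, a myotubularin-related phosphatase gene within 301.2 kb on chromosome 14, rose too, from 406 and 377 in wild type to 915 and 1045. Gnaz, a G protein alpha subunit gene and the single higher gene of 22 on the ion channel and neuronal receptor list, had 89.4 and 101 against 8.38 and 9.97. Trabd2b had 113 and 117 against 15.1 and 12.97, and Parm1 114 and 117 against 16.8 and 17.95. In these genes except Mtmr9 the wild-type libraries were at low levels.

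Stress and chaperone genes, receptors and metabolism gave smaller numbers. Of 18 chaperone and stress genes, Hspd1, the mitochondrial chaperonin HSP60, had 5139 and 4824 against 2540 and 2957, and Chac1, a glutathione-degrading enzyme induced by the integrated stress response, 74.1 and 42.8 against 4.19 and 3.99. Stip1, a co-chaperone that links HSP70 and HSP90, was higher as well, with 2834 and 3244 against 1731 and 1999. Pycr1, an enzyme of proline synthesis, had a log2 ratio of 3.17. Cybb, the catalytic subunit of the phagocyte NADPH oxidase, was among the most abundant rises, with 10582.5 and 9012 against 5691 and 6030. Interleukin receptor genes, of which no list was counted, went both ways. Il9r had 3646 and 2921 against 1909 and 1732 and Il1r2, a decoy receptor, 41.4 and 75.7 against 8.38 and 5.98, while Il5ra was lower with 86.1 and 170 against 301 and 305 and Il18rap with 557 and 411 against 984 and 817. Lag3, the inhibitory receptor, named after its values were seen, had 465 and 516 against 166 and 123.

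Falls outside the groups above were of varied genes, with no list of them counted. Gas5, a noncoding host gene of small nucleolar RNAs, had 1357 and 1235 normalised reads in knockout and 6363 and 5524 in wild type, a log2 ratio of -2.20 with an adjusted p of 2.11e-25 in the authors' deposited table. Snhg1, another host gene of this kind, named after its values were seen, had 1785 and 1933 against 3559 and 2942. H3f3b, a histone H3.3 gene, had a log2 ratio of -0.68, the splicing factor gene Srsf5 -0.66 and the antiproliferative gene Btg1 -0.67, all 3 under 2-fold. Also abundant were the GTPase gene Gimap6, with a mean of 8578 in knockout and 14024 in wild type in the authors' deposited table, and Cd55, which encodes an inhibitor of complement, with 4455 and 8106. Hcrtr2, an orexin receptor, had 5.45 and 10.96 against 82.9 and 107, and F2rl1, the protease-activated receptor PAR2, 8.72 and 43.9 against 203 and 134. The log2 ratio of F2rl1, -2.68, was -4.27 without the knockout library with more reads, and that of Mcam, an adhesion molecule gene, went from -1.997 to -3.12 in the same way. Fcer2a, the single B cell identity gene, had 4398 and 6027 against 9481 and 10432.

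The same genes were looked up in splenic T cells and lymph node, whose libraries are separate from those of the B cells. Of about 25015 genes tested in T cells 2.35% were called, and of about 22105 in lymph node 0.475%. In T cells 92 of the 298 were also called, which is 30.9% of the B cell genes and 15.7% of the T cell genes, and 90 of the 92 went in the same direction. Of these 39 were higher, against 1.67% of all genes tested in T cells, and 51 lower, against 0.676%. In lymph node 49 were called, 16.4% of the B cell genes and 46.7% of those of lymph node, and 48 went in the same direction. Of these 9 were higher, against 0.181% of genes tested there, and 39 lower, against 0.294%. Whether the B and T cells came from the same mice is not given in the sources used here. Without receptor segments and predicted genes 60 and 19 were shared.

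The groups differed in whether their genes were called elsewhere. Of the 6 germinal centre genes and of the 8 interferon-stimulated genes none was called in lymph node. In T cells Oas2 had a log2 ratio of 1.41 against 1.40 in B cells, Ifi44 2.16 against 3.19, Oas1g 3.12 against 4.02, Usp18 0.95 against 1.11, Oasl1 0.76 against 0.98 and Oas1a 0.75 against 1.70. Of the natural killer genes, Klra1 was called in all 3 tables, at -2.05 in B cells, -1.74 in T cells and -3.35 in lymph node. The lymph node value of Klra1 rests on 0 and 22 reads in the knockout libraries. Klra7 (-1.97), Klrd1 (-0.88) and Xcl1 (-1.20) were called lower in T cells, and Gzma and Ncr1 were not called there. The immediate-early genes Klf6 (-0.74), Junb (-0.81), Dusp2 (-0.68) and Rgs2 (-0.58) were called lower in T cells, and Jund (-0.66) in lymph node. A gene not called in a table is not shown to differ from B cells there.

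Called in all 3 tables were 30 genes. Pydc4 stood at -4.75 in B cells, -4.87 in T cells and -5.26 in lymph node, and Lyz2 at -6.55, -5.61 and -6.66. Gas5 was at -2.20, -2.11 and -2.27, Serinc3 at -2.98, -1.80 and -2.15, and 2610507I01Rik, a gene known by its clone name, at -6.00, -6.65 and -7.83. The B cell value of 2610507I01Rik rests on 1 and 3 reads in the knockout libraries, and was -5.41 or -7.00 with either of them left out. Its T cell value rests on 2 and 1 knockout reads, and its lymph node value on 0 and 1. Lyz1 was at 3.93, 2.89 and 2.19, and Xkr6 at 4.18, 4.27 and 2.84. Variable segments were among the 30 too, and Ighv1-80, Ighv1-22, Ighv1-19, Ighv1-39, Ighv3-1 and Ighv5-16 had 0 reads in the knockout libraries of all 3 tables. The Ighv1-14 entry had a log2 ratio of 7.40 in lymph node, which rests on 0 and 4 wild-type reads. Its wild-type T cell libraries were at 0. These values lie close together across 3 preparations for Pydc4 and Gas5, with no test of a difference between tables.

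**Figure D5:**
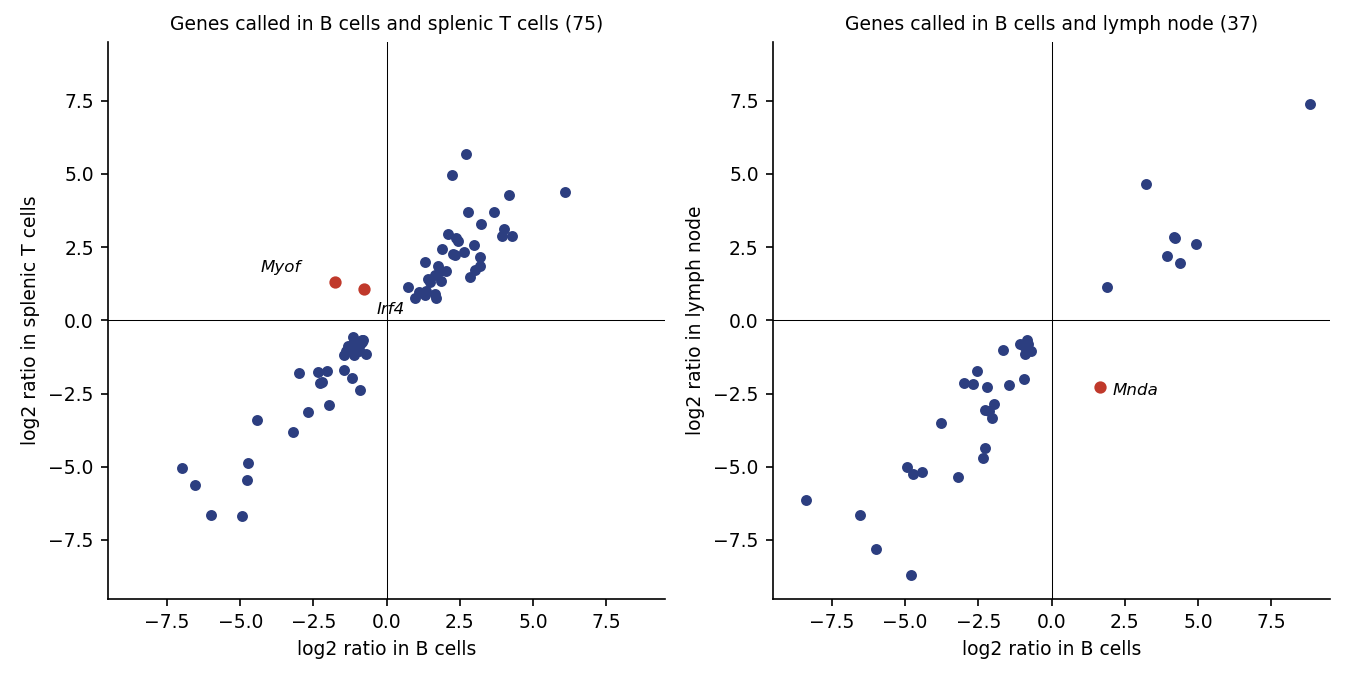
The log2 ratio in B cells against that in splenic T cells (75 of the 92 genes called in both) and in lymph node (37 of 49), for genes with reads in both genotypes. Red points, Myof and Irf4 in T cells and Mnda in lymph node, are the genes of opposite direction, and the other points share a direction.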

How the data were processed

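Messenger RNA of splenic B cells, 2 samples per genotype, was measured by sequencing. The authors deposited for this comparison a signal per gene, the normalised read count as 1 mean over both libraries of a group, with a p-value and an adjusted p-value from DESeq, per the submitters' processing notes, which also name CASAVA 1.8 and the build GRCm38 (mm10). How reads were aligned and counted, with or without strand and on which annotation, is not given in the sources used here, so antisense and overlapping genes are uncertain. The table holds genes with an adjusted p under 0.05 alone, and 31 trailing names without values, all listed above with values, were dropped. No column of values of other samples was present.

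The log2 ratio was computed from the deposited means, because 1 column of fold changes holds spreadsheet errors. How many genes were tested followed from the Benjamini-Hochberg relation between each p, its rank and its adjusted value. Whole reads per library were recovered from the 10 digits of each mean by finding the pair of size factors that makes both libraries whole. On simulated data for this comparison, 298 genes in 10 draws, 95.4% of genes were solved and 100% of these were right. No count test was run, since reads could be recovered for called genes alone, and neither the spread over all genes nor an adjusted p can be fitted from those. Edge cases with 0 reads in 1 group are given as bounds from 3 reads over the group. Positions came from GENCODE M21 by Ensembl ID for 294 genes, and promoters from RefSeq.

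The 298 genes, the 32 gene lists and the tests were chosen with earlier results of these data known. A few list genes are not reported here and were left out of their lists' counts. Genes were named by a rule that takes Becn2 and Becn1, up to 10 called genes per list and direction by adjusted p, the 20 largest rises and falls with a mean of at least 50, the 10 of highest mean, the 5 of smallest and of largest adjusted p per direction, called genes within 10 Mb of Becn2, the 5 largest changes per segment family, and up to 20 genes shared with the T cell or lymph node table. Which of these were printed in full was decided after their values were seen, as were genes said to be so named and some segments and list members given as examples. Alternatives were a stricter adjusted p (0.01), a 2-fold minimum, a mean of at least 50, leaving out receptor segments and predicted genes, adding 1 or 10 to both means, size factors set to 1 and leaving out each recovered library. Scripts ran in Python 3.11.15 with numpy 2.4.6, pandas 2.3.3 and scipy 1.17.1.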

Additional observations from a re-analysis of the deposited data

Results flagged for a closer look

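Of the 92 genes called in B cells and in splenic T cells, Myof and Irf4 went in opposite directions, and the difference between the cell types was not tested. Myof, which encodes the membrane repair protein myoferlin and is on the marginal zone and B1 cell list, had 316 and 164 normalised reads in knockout B cells and 793 and 834 in wild-type B cells, a log2 ratio of -1.76. In T cells it had 166 and 168 in knockout and 67.7 and 67.7 in wild type, a log2 ratio of 1.30.

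Irf4, a transcription factor of activated B cells, plasma cells and effector T cells, had a log2 ratio of -0.77 in B cells and 1.08 in T cells, where the knockout libraries held 992 and 1147 normalised reads and the wild-type libraries 511 and 503. Of 23 plasma cell genes it was the single one called in B cells, against 16 called in T cells, all higher. Over all genes tested, 0.751% were called lower in B cells and 1.67% higher in T cells. The part of plasma cells in the T cell value was not tested.

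Mnda, of the PYHIN run, was the single gene of opposite direction among the 49 called in B cells and in lymph node. Its log2 ratio was 1.66 in B cells and -2.27 in lymph node, where the knockout libraries held 64.2 and 78.3 normalised reads and the wild-type libraries 346 and 343. This difference was not tested either, and reads can be divided among the paralogs of the run. Mnda is no longer among the shared genes at an adjusted p under 0.01, since its adjusted p in B cells was 0.0176 in the authors' deposited table.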

How the results depend on the processing

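No gene changed direction under any alternative that gave it a finite ratio, but most alternatives could not have changed it. Adding 1 or 10 to both means never changes a direction. Leaving out a library cannot do so in the 289 resolved genes, whose genotypes did not overlap. Size factors set to 1 could have changed it, and did so in none of 261 genes. Without receptor segments and predicted genes the count of lower genes was 118 in place of 180, and the genes shared with T cells and with lymph node 60 and 19 in place of 92 and 49. At a 2-fold minimum 9 immediate-early genes were left of 16, 4 of the 7 lower effector T cell genes and 2 of 4 lower genes each of the NF-kB and PYHIN lists. The PYHIN list does not hold Gm4955, the lower gene of that run with a log2 ratio of -1.96. At an adjusted p under 0.01, 3 of the effector genes and 2 of 4 lower cytokine and chemokine genes were left. The other counts of called genes and of the germinal centre, interferon, natural killer and immediate-early lists stayed within 1.5 times at an adjusted p under 0.01, a 2-fold minimum and a mean of at least 50. With size factors set to 1 the median ratio of all genes moved by -0.27 (log2) and that of the lower genes from -1.46 to -1.79, so changes are relative to the scaling, which the tables do not let be checked. Leaving out each recovered library in turn, the median of the higher genes ran from 1.79 to 1.93, and that of the lower genes from -1.62 to -1.45. Leaving out 1 knockout library moved 20 and 18 genes by over 1.5-fold, and 1 wild-type library 3 and 5. Adding 10 to both means moved 37 genes by over 1.5-fold and adding 1 moved 5, all of low level in 1 group at least, Lyz2 and Ighv1-14 among the 37. No paired analysis was possible because the columns are group means and the recovered libraries carry no replicate number. The comparison of TMM with size factors was not run, since no counts of all genes were at hand. Genes that were not called have no value here, and precision of rare transcripts is limited by their few reads.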
